A study of Mus musculus with 5 samples.

Results

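The genes of the mitochondrial respiratory chain and ATP synthase were taken by symbol: those on probes with a single platform symbol that starts with Nduf, Uqcr, Atp5 or Cox followed by 4 to 8, together with Sdha, Sdhb, Sdhc, Sdhd, Cyc1 and Cycs. This gave 87 genes on 244 probes, of 9050 genes on 14759 probes with a single symbol. All 87 had a value on each of the 5 arrays, on 235 probes, and were among 8452 such genes in the whole series. The symbols took in 79 subunits, 7 assembly factors of complex I (the Ndufaf genes) and Cox7a2l, a factor of the chain's supercomplexes that is no subunit of complex IV. Ndufa4 was counted with complex IV, where its protein resides. None of the 13 protein-coding genes of the mitochondrial genome was measured among the named probes, so the values describe the nuclear-encoded part of each complex.

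Bone marrow of C3H/HeJ mice was grown into macrophages with human CSF-1, and the cells were exposed to LPS of Salmonella minnesota at 10 µg/ml for 0.5, 2, 7 or 21 h or were unexposed (0 h). Each of the 5 RNAs was set on 1 two-colour cDNA array against RNA of whole C57BL6/J embryos of 17.5 days. C3H/HeJ mice carry a mutation in Tlr4, the LPS receptor, and respond weakly to LPS, a limit on these cells as a model of activation. Every group held 1 array, so no test was possible, no p-value is given, and the error given is the SD between probes of a gene, which holds no spread between cultures or hybridisations.

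The respiratory chain passes electrons from NADH (complex I) and succinate (complex II) through complex III and cytochrome c to oxygen at complex IV. The proton gradient built on the way drives ATP synthase, whose F1 head makes ATP and whose membrane part, Fo, carries the protons. Macrophages that respond fully to LPS are known to shift from respiration to glycolysis, and heart, skeletal muscle and brown fat are known for a high content of these complexes.

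A value is the log10 ratio of a gene on an array, in the likely direction macrophage over embryo, with each array centred so that its median gene lies at 0. Neither the base nor the direction is stated. The base was judged from the size of the ratios, which reached -1.87 among the erythroid markers. The direction was judged from 5 of 7 macrophage markers at 2-fold or more above 0 over the 0, 2, 7 and 21 h arrays, led by Fcgr1 at 1.43, and from all 22 striated muscle and all 8 fetal liver markers below 0. The macrophage markers Cd68 at -0.19 and Tyrobp at -0.17 went the other way. A 2-fold ratio is 0.301 in log10 units. The embryo differs from the macrophages in strain as well as in tissue, and the contributions cannot be told apart.

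The 0.5 h array stood apart from the other arrays. It held 18724 values, against 19571 to 19674 on the other arrays, and its correlation with the 0 h array over all genes was 0.51, against 0.77 to 0.88 for the later arrays. Among the 87 genes that correlation was 0.33 at 0.5 h and 0.65 to 0.87 later. The SD between probes of one member gene was 0.54 at 0.5 h, against 0.21 to 0.25 on the other arrays. The disagreement was followed over stretches of 400 neighbouring probe numbers. In 34 of 50 stretches the 0.5 h array correlated under 0.7 with the mean of the 2, 7 and 21 h arrays. Most of the array was thus affected, and 151 of the 235 member probes lay in these 34 stretches. Ratios to embryo are therefore also given as the mean of the other 4 arrays (0, 2, 7 and 21 h), and differences at 0.5 h also for the 58 members with a probe outside those stretches.

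**Figure D1:**
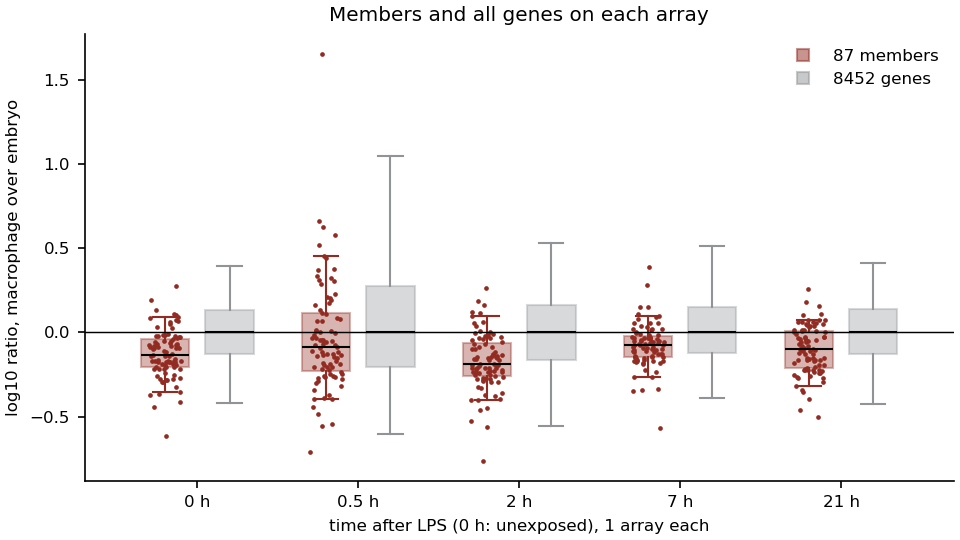
Distribution of the log10 ratio, macrophage over embryo, on each array for the 87 member genes (red, each gene a point) and for 8452 genes measured (grey); boxes span the quartiles, with the median as a line and whiskers from the 5th to the 95th percentile. Member medians lay at -0.13, -0.09, -0.19, -0.08 and -0.10 at 0, 0.5, 2, 7 and 21 h, below the centre of all genes on each array.

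The respiratory chain genes as a group were lower in the macrophages than in the embryo by a small amount, in most genes and on every array. The arrays share their probes and the kind of embryo RNA they were set against, so agreement between arrays is not independent. At 0 h 74 of 87 members lay below 0, with 50% of all genes below 0 by construction. At 0.5, 2, 7 and 21 h the counts were 56, 77, 69 and 62 of 87, again against 50% of all genes. The member medians at 0, 0.5, 2, 7 and 21 h were -0.13, -0.09, -0.19, -0.08 and -0.10. Over the mean of 4 arrays 74 of 87 lay below 0, against 48.2% of all genes, and the median of -0.12 corresponds to 0.762 of the embryo level. On each of these 4 arrays 51 members were below 0 (29.8% of all genes) and 6 were above 0 (29.5%): Atp5h, Atp5j2, Cox7b, Ndufa11, Ndufaf4 and Ndufaf8.

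Ratios of 2-fold or more below the embryo made up 4.60% to 14.9% of the members by array, against 8.02% to 17% of all genes. On the 0, 0.5, 2, 7 and 21 h arrays 7, 11, 13, 4 and 6 members lay 2-fold or more below the embryo, against 8.9%, 17%, 12.9%, 8.02% and 9.12% of all genes. In the mean of 4 arrays the 6 were Atp5c1, Atp5g3, Sdhb, Cox8a, Atp5d and Uqcr11, against 8.92% of all genes, and no member was as far above (9.34%). At 2-fold or more above the embryo there was no member at 0 h (8.99% of all genes), 2 h (13.4%) or 21 h (9.67%), 13 at 0.5 h (23.4%) and 1 at 7 h (12.6%), Atp5j2. The spread of the 87 genes on an array was narrower than that of all genes, with an SD of 0.13 to 0.17 against 0.27 to 0.36 on the 4 arrays. The 87 genes were averaged from 235 probes, against 13534 probes for all 8452 genes. More probes per gene by themselves narrow the gene values and lower counts past 2-fold, and the size of that effect was not tested. At the level of single probes, 194 of 235 member probes (82.6%) were below 0 at 0 h, against 51.2% of all probes, and 161 (68.5%) at 21 h, against 50.6%.

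**Figure D2:**
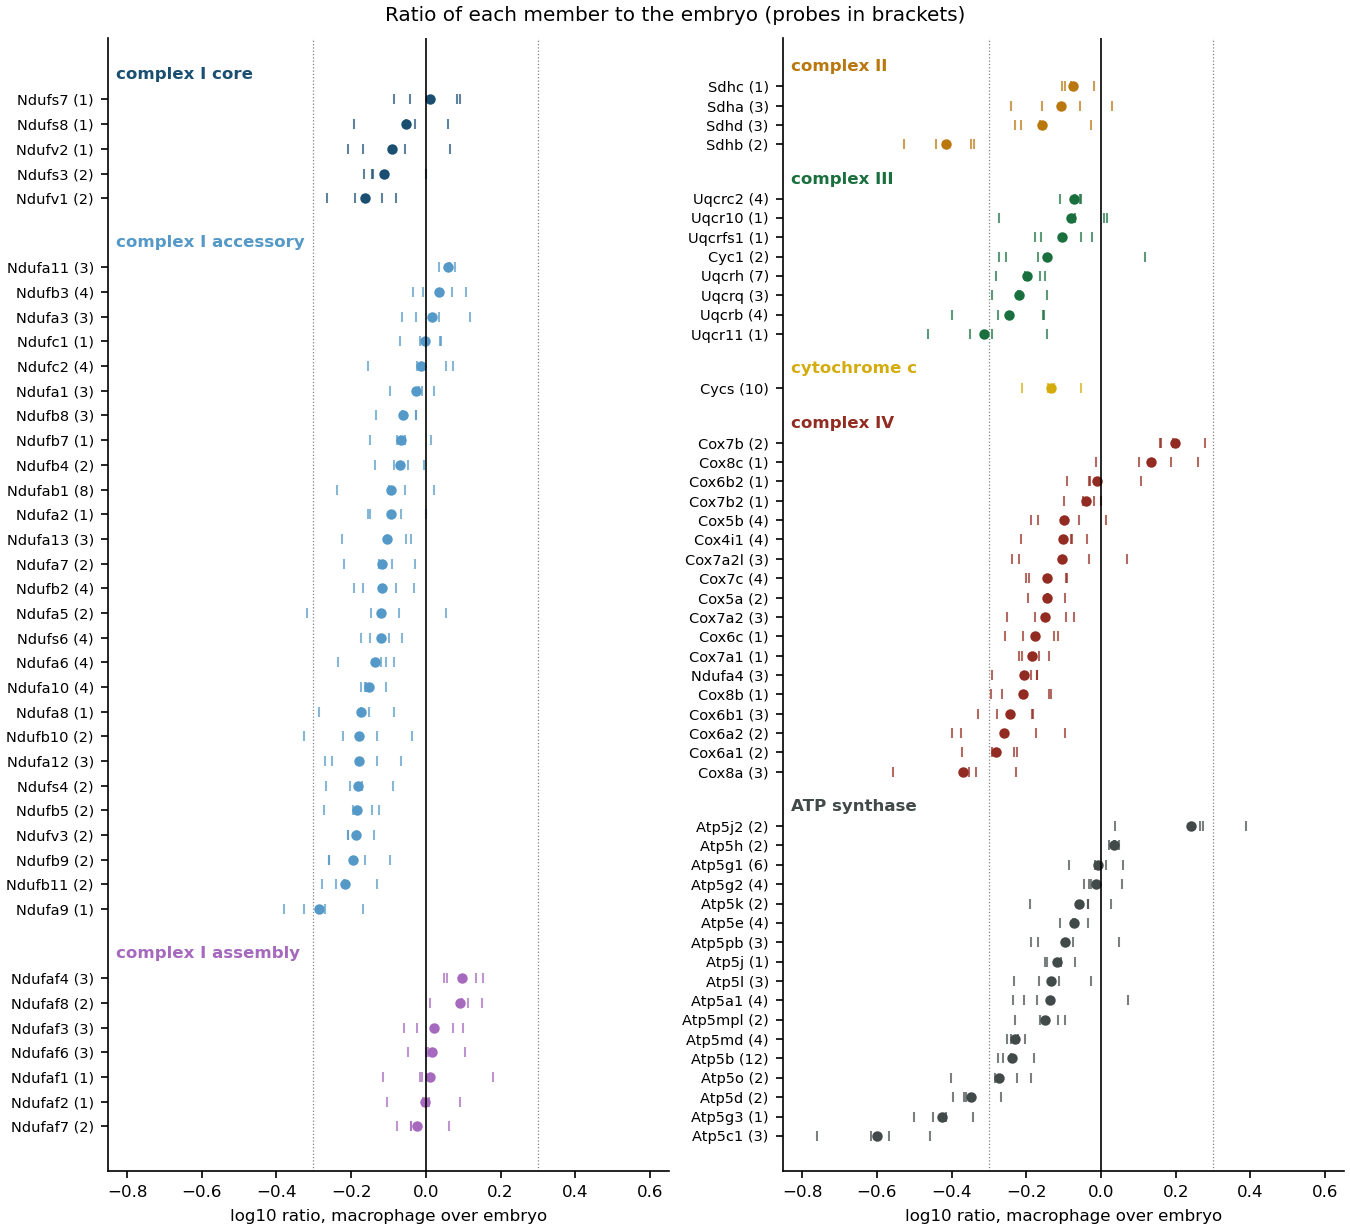
Log10 ratio, macrophage over embryo, of each of the 87 genes by complex, with the number of probes in brackets; dots are the mean of the 0, 2, 7 and 21 h arrays, ticks the single arrays, and dotted lines a 2-fold ratio. All complexes lay mostly left of 0 except the complex I assembly factors, with 2 of 7 below 0.

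Complex I, the NADH dehydrogenase, was measured through 5 core and 27 accessory subunits. The core subunits, which carry the flavin and iron-sulphur centres, had a median of -0.09 in the mean of 4 arrays, with 4 of 5 below 0. Ndufv1, the flavin-bearing subunit, was the lowest, at -0.08, -0.34, -0.19, -0.12 and -0.26 at 0, 0.5, 2, 7 and 21 h. Ndufs7, an iron-sulphur subunit, was the highest, at 0.08, 0.21, -0.09, 0.09 and -0.04. The lowest core subunit was thus below the embryo at every time, whereas the highest lay on both sides of it.

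The accessory subunits of complex I had a median of -0.12, with 24 of 27 below 0. The lowest was Ndufa9, needed for a stable junction of the membrane and matrix arms, with 1 probe at -0.33, -0.71, -0.38, -0.17 and -0.27 at 0, 0.5, 2, 7 and 21 h. The highest was Ndufa11, a membrane-arm subunit, with 3 probes and ratios of 0.03, 0.01, 0.06, 0.08 and 0.06, close to the embryo level throughout. Ndufab1, the mitochondrial acyl carrier protein, averaged -0.09 ± 0.36 (SD of 8 probes), with 6 of 8 probes below 0 and the other two at 0.45 and 0.49. Its probes therefore disagreed by more than the shift of the group.

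The 7 assembly factors of complex I, which build the complex and do not remain in it, lay at the embryo level: their median was 0.02 in the mean of 4 arrays, with 2 of 7 below 0. Ndufaf4 was the highest, at 0.13, 0.38, 0.06, 0.15 and 0.05 at 0, 0.5, 2, 7 and 21 h. Ndufaf8 had 0.11, -0.28, 0.10, 0.15 and 0.01. Ndufaf7, a methyltransferase that acts on a core subunit, was the lowest, at 0.06, -0.40, -0.04, -0.08 and -0.04. A separate list of 29 measured assembly factors of the other complexes and of complex I lay close to them, with a median of -0.03 and 17 of 29 below 0. Past 2-fold in that list were Ttc19 at 0.32, Coa7 at 0.31 and Uqcc1 at -0.31. Without the Ndufaf genes and Cox7a2l, the 79 subunits had a median of -0.13 and 71 below 0.

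Complex II, succinate dehydrogenase, is shared by the chain and the tricarboxylic acid cycle, and all 4 subunits were below 0 in the mean of 4 arrays, with a median of -0.13. Sdha, the flavoprotein that oxidises succinate, had -0.24, -0.26, -0.16, 0.03 and -0.06 at 0, 0.5, 2, 7 and 21 h. Sdhb, the iron-sulphur subunit, had -0.44, 0.13, -0.53, -0.35 and -0.34. Sdhd, a membrane anchor, had -0.21, -0.04, -0.23, -0.16 and -0.03. Sdhc, the other anchor, stayed within -0.11 to -0.02 on all 5 arrays. The low value of Sdhb rested on 1 of its 2 probes: the means over 4 arrays were -0.76 and -0.07.

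Complex III, which passes electrons to cytochrome c, had the lowest median of the complexes, -0.17, with 8 of 8 measured genes below 0. Uqcr11, a small subunit with 1 probe, was the lowest, at -0.29, -0.18, -0.46, -0.14 and -0.35 at 0, 0.5, 2, 7 and 21 h. Uqcrh, the hinge protein, averaged -0.20 ± 0.16 (SD of 7 probes), with 6 of 7 probes below 0. Uqcrc2, a core protein, was nearest to the embryo at -0.07, and 1 of its 4 probes read 0.47. Cyc1, the haem-bearing cytochrome c1, had -0.25, -0.37, 0.12, -0.17 and -0.27, above the embryo only at 2 h. Cycs, somatic cytochrome c, averaged -0.13 ± 0.10 (SD of 10 probes), with 9 of 10 probes below 0 and array values of -0.14, -0.20, -0.21, -0.05 and -0.13.

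Complex IV, cytochrome c oxidase, had a median of -0.15 with 16 of 18 genes below 0. The exceptions were Cox7b, a structural subunit, at 0.19, 0.19, 0.16, 0.28 and 0.16 at 0, 0.5, 2, 7 and 21 h, and Cox8c. The 2 Cox7b probes averaged 0.23 and 0.17 over the 4 arrays, so both were above the embryo. Cox4i1, the largest nuclear-encoded subunit, was at -0.08, -0.19, -0.22, -0.04 and -0.08. Cox7c was mixed, with 3 probes at -0.35, -0.31 and -0.33 and the fourth at 0.41.

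Several complex IV subunits have tissue isoforms, and the forms known from heart and skeletal muscle were below the embryo. The widely used forms of the same subunits, Cox6a1, Cox7a2 and Cox8a, were also below it, whereas Cox7b, set beside Cox7b2, was above it. Cox6a2, the muscle form, had -0.37, -0.44, -0.40, -0.17 and -0.10 at 0, 0.5, 2, 7 and 21 h, and Cox6a1, the widely used form, had -0.29, -0.48, -0.37, -0.23 and -0.22. The 2 Cox6a2 probes averaged -0.04 and -0.49 over the 4 arrays and read 0.37 and -0.56 at 21 h, so the Cox6a2 value rested mainly on 1 probe. Cox7a1, the muscle form, lay between -0.25 and -0.14 over the 5 arrays and Cox7a2 between -0.26 and -0.07. Cox8b, the muscle form, lay between -0.29 and -0.13, and Cox8a between -0.56 and -0.23, though 2 of the 3 Cox8a probes averaged -0.07 and -0.09 and the other -0.95. The forms known mainly from testis were nearer the embryo or above it on the 4 arrays: Cox6b2 lay between -0.09 and 0.11, Cox7b2 between -0.10 and 0.00, and Cox8c between -0.01 and 0.26. Each of these 3 had 1 probe, and each was high at 0.5 h alone, at 0.63, 0.52 and 1.65. Their probes lay in stretches where the 0.5 h array departed, with correlations of 0.665, 0.588 and 0.356. With a running median over probe numbers removed, the 0.5 h differences from 0 h of Cox6b2 and Cox7b2 were 0.233 and 0.252, within 2-fold. For each gene this was the lowest of 10 alternatives, which ran to 0.76 and 0.576. Cross-hybridisation between isoforms or to processed pseudogenes was not tested. The isoforms Cox4i2, Ndufa4l2 and Cyct were not analysed here.

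ATP synthase had a median of -0.13 with 15 of 17 genes below 0. The F1 head was the lower portion, with a median of -0.24 and 5 of 5 below 0, against -0.11 and 10 of 12 for Fo and the stalk. Atp5b, the catalytic beta subunit and the member with most probes, had -0.27, -0.12, -0.26, -0.18 and -0.24 at 0, 0.5, 2, 7 and 21 h, with a mean of -0.24 ± 0.12 (SD of 12 probes) and 11 of 12 probes below 0. Atp5c1, the rotating gamma subunit, was the lowest member of all at -0.60, but its 3 probes averaged -1.53, -0.11 and -0.16. Atp5d, the delta subunit, averaged -0.35 over probes at -0.56 and -0.14. The F1 shift thus rested most firmly on Atp5b, since the 2 lower genes were each led by 1 probe.

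Among the Fo genes, the 3 that encode the same mature c subunit of the proton-carrying ring differed. Atp5g3 had -0.41, -0.56, -0.45, -0.34 and -0.50 at 0, 0.5, 2, 7 and 21 h, on 1 probe. Atp5g1 averaged -0.01 ± 0.16 (SD of 6 probes), with 4 of 6 probes below 0, and Atp5g2 lay between -0.05 and 0.06 on the 4 arrays. The lower ratio was thus found in 1 gene of the 3. Atp5j2, a small membrane subunit, was the highest member, at 0.27, 0.12, 0.26, 0.39 and 0.04, but its probes averaged 0.62 and -0.14. Atp5h, a stalk subunit, was close to 0 on every array, between 0.02 and 0.08.

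**Figure D3:**
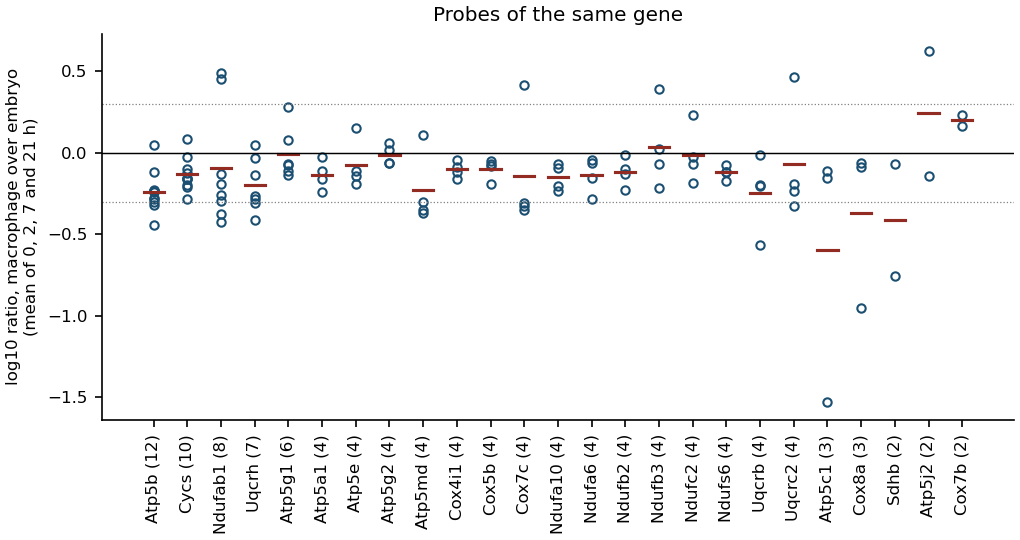
Log10 ratio, macrophage over embryo, of each single probe (circles) and of its gene (red bars), as the mean of the 0, 2, 7 and 21 h arrays, for the 20 genes with 4 or more probes and 5 others named in the text, with dotted lines at 2-fold. Atp5b (11 of 12 below 0) and Cycs (9 of 10) agreed between probes, whereas Ndufab1 had probes at 0.45 and 0.49 beside 6 below 0.

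The order of the complexes, from complex III at -0.17 through complex IV, ATP synthase, cytochrome c and complex II to complex I accessory and core subunits at -0.12 and -0.09, was narrow beside the spread of genes within most complexes. The middle 50% of the genes ran from -0.23 to -0.10 in complex III, from -0.21 to -0.10 in complex IV and from -0.18 to -0.06 in complex I accessory subunits. It was narrower in the 5 core subunits, from -0.11 to -0.05. These ranges overlapped, and the order was not tested. With 1 probe per gene, that of the highest ratio, the medians were -0.13 for complex III and -0.05 for ATP synthase.

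Neighbouring pathways were read in the same way. The 12 measured genes of the tricarboxylic acid cycle and pyruvate dehydrogenase had a median of -0.16, with 11 below 0. Past 2-fold were Idh3g, a regulatory subunit of isocitrate dehydrogenase, at -0.41 and Dlst, a subunit of oxoglutarate dehydrogenase, at 0.34. Fatty acid oxidation was lower, with a median of -0.25, 16 of 17 genes below 0 and 6 of them 2-fold or more below the embryo, led by Acaa2, the last enzyme of the beta-oxidation cycle, at -0.56, with Eci1 at -0.45 and Decr1 at -0.43, enzymes that handle unsaturated fatty acids. Mitochondrial ribosomal proteins lay near the embryo level, with a median of -0.02 and 44 of 73 below 0. Cytosolic ribosomal proteins, which are not mitochondrial, had a median of -0.18 and 65 of 73 below 0. A median as low as that of the respiratory chain was thus also found in a large set of genes outside the organelle.

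Inner membrane carriers and uncoupling proteins, listed together with the outer membrane porins Vdac1, Vdac2 and Vdac3, had a median of 0.01, with 5 of 10 below 0. The porins were at -0.05, 0.23 and 0.05. Slc25a4, the adenine nucleotide carrier of heart and muscle, was at -0.35 on 8 probes, and Slc25a5, the more widely used carrier, at 0.14. Among 10 regulators of mitochondrial biogenesis the median was -0.01. Ppargc1a, the coactivator that promotes mitochondrial biogenesis, was at -0.34, and Nrf1, a transcription factor of respiratory genes, at -0.31, each on 1 probe. Polrmt, the RNA polymerase of mitochondria, was at 0.44 on 1 probe. It varied between arrays, with 0.26, -0.23, 0.78, 0.60 and 0.14 at 0, 0.5, 2, 7 and 21 h.

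Tissues rich in mitochondria form part of the embryo RNA. All 22 measured markers of striated muscle were below 0, with a median of -0.52 and a range of -1.58 to -0.09. Of the brown fat markers 2 were measured, Ucp1 at -0.39 and Cidea at 0.13. Fetal liver markers had a median of -1.02, with 8 of 8 below 0, and erythroid markers -0.46, with 5 of 6. The part of these tissues in the respiratory chain ratios was not tested. In RNA of a whole organism, fewer cells of a type and less RNA per cell cannot be told apart.

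**Figure D4:**
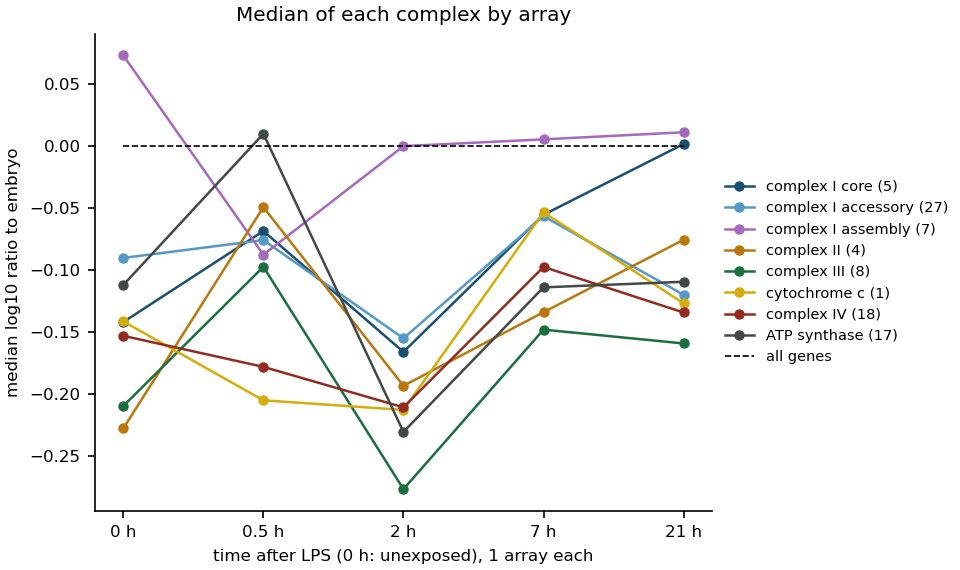
Median log10 ratio, macrophage over embryo, of each complex on each array in order of time, with the number of genes in brackets. Complex III read -0.21, -0.10, -0.28, -0.15 and -0.16 at 0, 0.5, 2, 7 and 21 h and the complex I assembly factors stayed within -0.09 to 0.07.

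Promoters of the respiratory chain are known for sites of NRF1, a factor named for nuclear respiratory genes, and of the ETS factor GABP. Promoter sequence was taken from RefSeq (GRCm38.p6) for 73 of the 87 genes, which gave 78 promoters, and the 250 bases before each start were searched on both strands. The NRF1 motif, GCGCA then any base then GCGC, was found in 14 member promoters (17.9%), against 3.74% of 32851 promoters. The ETS motif CCGGAAG was found in 13 (16.7%), against 6.91%. The ERR motif TNAAGGTCA was found in 2 (2.56%, against 1.14%) and the YY1 motif AAGATGGCG in 1 (1.28%, against 0.606%). With the 50 bases after the start included, AAGATGGCG was found in 8 (10.3%), against 1.40%. No match overlapped another.

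Member promoters were richer in G and C, with a median of 57.6% against 52.4% and 15 CG pairs against 6, and the NRF1 motif itself holds CG pairs. Among promoters with 15 or more CG pairs, NRF1 matches stood in 27.5% of 40 member promoters, against 11.1% of 8970 promoters, and ETS matches in 15%, against 15.5%. The ratio to embryo differed little by NRF1 match: the 13 with one had a median of -0.11 and 10 below 0, and the 60 without one -0.12 and 52 below 0. A match describes letters in the window and is no evidence of binding.

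Printed here are 4 promoters that hold an NRF1 match together with at least 1 other match, to show how the matches are spaced in genes of complex IV, complex I and complex II. Each is written 5′ to 3′ on the gene's strand and ends at the base before the start, with every match in capitals. They lie at chr5:115348959-115349208, chr16:37654369-37654618, chr13:74350241-74350490 and chr9:50603850-50604099, all on the minus strand of GRCm38.p6. The capitals that open with GCGC are NRF1 matches, 2 in Cox6a1, 3 in Ndufb4, 3 in Sdha and 1 in Sdhd. CTTCCGG, in Cox6a1 and Sdhd, is the ETS motif read on the other strand, and TGAAGGTCA, in Ndufb4, is the ERR motif.
Cox6a1: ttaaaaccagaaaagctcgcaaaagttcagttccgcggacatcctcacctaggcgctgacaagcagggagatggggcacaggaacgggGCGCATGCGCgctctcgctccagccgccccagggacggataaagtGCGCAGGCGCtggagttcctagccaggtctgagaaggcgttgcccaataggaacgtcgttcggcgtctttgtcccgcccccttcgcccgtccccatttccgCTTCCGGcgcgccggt
Ndufb4: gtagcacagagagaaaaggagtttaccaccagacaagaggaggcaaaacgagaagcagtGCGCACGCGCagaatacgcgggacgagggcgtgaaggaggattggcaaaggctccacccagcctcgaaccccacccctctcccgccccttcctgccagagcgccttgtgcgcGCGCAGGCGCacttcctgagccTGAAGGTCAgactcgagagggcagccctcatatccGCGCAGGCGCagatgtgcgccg
Sdha: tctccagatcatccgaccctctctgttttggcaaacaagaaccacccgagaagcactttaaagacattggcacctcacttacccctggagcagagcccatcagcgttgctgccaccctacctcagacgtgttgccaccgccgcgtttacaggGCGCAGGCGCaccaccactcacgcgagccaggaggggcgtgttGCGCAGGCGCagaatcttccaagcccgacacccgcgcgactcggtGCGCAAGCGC
Sdhd: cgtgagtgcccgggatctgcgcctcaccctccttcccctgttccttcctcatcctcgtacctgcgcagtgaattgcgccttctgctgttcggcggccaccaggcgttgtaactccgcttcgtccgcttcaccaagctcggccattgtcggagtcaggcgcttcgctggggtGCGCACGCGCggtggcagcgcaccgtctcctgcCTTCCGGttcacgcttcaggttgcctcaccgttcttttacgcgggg

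At 2, 7 and 21 h nearly all respiratory chain genes lay within 2-fold of their 0 h values. At 0.5 h, on the array that stood apart, 23 of 87 did not. Of these, 19 were higher (21.8%, against 19.9% of all genes) and 4 lower (4.60%, against 10.6%). The share of higher members was thus near that of all genes, and the share of lower members was below it. The differences at 0.5, 2, 7 and 21 h share the 0 h array and its errors. With the 0 h value taken off, the member medians at 0.5, 2, 7 and 21 h were 0.02, -0.05, 0.05 and 0.02, against -0.01, -0.01, 0.02 and 0.00 for all genes. At 2 h 1 member was 2-fold or more above its 0 h value (4.24% of all genes) and none was as far below (2.58%). At 7 h and at 21 h no member was 2-fold higher (3.35% and 4.33%) or 2-fold lower (1.4% and 4.69%).

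The member past 2-fold at 2 h was Cyc1, 0.37 above 0 h. Its 2 probes read 0.12 and 0.11 at 2 h, against -0.49 and -0.02 at 0 h, so they agreed at 2 h and disagreed at 0 h, and the difference of 0.37 ± 0.34 (SD of 2 probes) was led by 1 of them. With the probe of the highest ratio alone it was 0.125. At 7 and 21 h Cyc1 was 0.09 and -0.02 from its 0 h value.

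As measured, small differences ran mostly in one direction at 2 h and at 7 h. At 2 h 70 of 87 members lay below their 0 h value, against 54.4% of all genes, among them 16 of 18 genes of complex IV, 15 of 17 of ATP synthase and 20 of 27 accessory subunits of complex I. The 2 h array had a wider spread over all genes, with an SD of 0.36 against 0.27 at 0 h. The share of members below 0 h was 80.5% as measured and 57.5% after quantile normalization, which gives the arrays a common spread, and the median then was -0.02. With the loess trend removed the share at 2 h was 54% and the median -0.0135, so the extent of the shift depended on the processing. Over 15 alternatives the median was -0.0839 to -0.0135, with no change of sign, and the share 54% to 82.8%. At 7 h 22 of 87 lay below their 0 h value, against 41.9% of all genes, and at 21 h 38 of 87, against 49.1%.

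Set against each other, 72 of 87 members were higher at 7 h than at 2 h, against 59.3% of all genes, with a median difference of 0.11 against 0.04 for all genes. Over the 10 alternatives run for this comparison the share was 71.3% to 85.1% and the median 0.0643 to 0.129. Removal of a loess trend or of a running median was not among them. Accessory subunits of complex I were higher at 7 h in 25 of 27 genes, complex IV in 15 of 18, ATP synthase in 14 of 17 and complex III in 5 of 8. Uqcr11 was the only member 2-fold or more higher (5.96% of all genes), at -0.14 at 7 h and -0.46 at 2 h, and none was as much lower (5.36%). Cytosolic ribosomal proteins did likewise, 67 of 73 being higher at 7 h with a median of 0.14. Fetal liver markers, foreign to the macrophage, were higher in 7 of 8 with a median of 0.34, and striated muscle markers in 19 of 22 with a median of 0.10. Their part in the member difference was not tested.

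The genes with most probes showed small differences at 2 h and 7 h. Atp5b was 0.01 ± 0.06 from 0 h at 2 h and 0.09 ± 0.06 at 7 h (SD of 12 probes), with all 12 probes higher at 7 h. Cycs was -0.07 ± 0.08 at 2 h and 0.09 ± 0.09 at 7 h (SD of 10 probes). Uqcrh was -0.08 ± 0.07 at 2 h and 0.05 ± 0.14 at 7 h (SD of 7 probes). All of these lay well within 2-fold, and those of Cycs and Uqcrh were close to the spread of their probes. Sdha differed from 0 h by 0.27 ± 0.38 at 7 h (SD of 3 probes), led by a probe at 0.34 at 7 h.

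At 0.5 h 19 members were 2-fold or more above their 0 h value, close to the 19.9% of all genes, and 4 were as far below (10.6% of all genes): Ndufa9, Ndufaf1, Ndufaf7 and Ndufaf8. The largest difference was that of Cox8c, at 1.65 against 0.10 at 0 h on 1 probe. That probe lay in a stretch where the 0.5 h array departed from the others, with a correlation of 0.356, and with the loess trend removed the difference of 1.55 was 0.226, within 2-fold. Atp5c1 was 0.78 ± 0.92 above 0 h (SD of 3 probes), Ndufa5, an accessory subunit of complex I, 0.73 ± 0.10 (SD of 2 probes) and Atp5a1, the F1 alpha subunit, 0.66 ± 1.41 (SD of 4 probes). In Atp5c1 and Atp5a1 the probes disagreed by more than the difference. Both Ndufa5 probes lay in such stretches too, with correlations of 0.25 and 0.09. Among the 58 members with a probe outside such stretches, 1 was higher, Uqcrh, and 2 were lower, Cox8a and Ndufaf7. The median difference of the 58 was -0.04, and Uqcrh and Cox8a were each left with 1 such probe. Probes were kept here by a correlation of 0.7 or more of the 0.5 h values with the mean of 2, 7 and 21 h. That choice by itself favours small differences at 0.5 h, and the share of all genes under it is not given. The lower counts therefore cannot decide whether the members differed at 0.5 h.

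**Figure D5:**
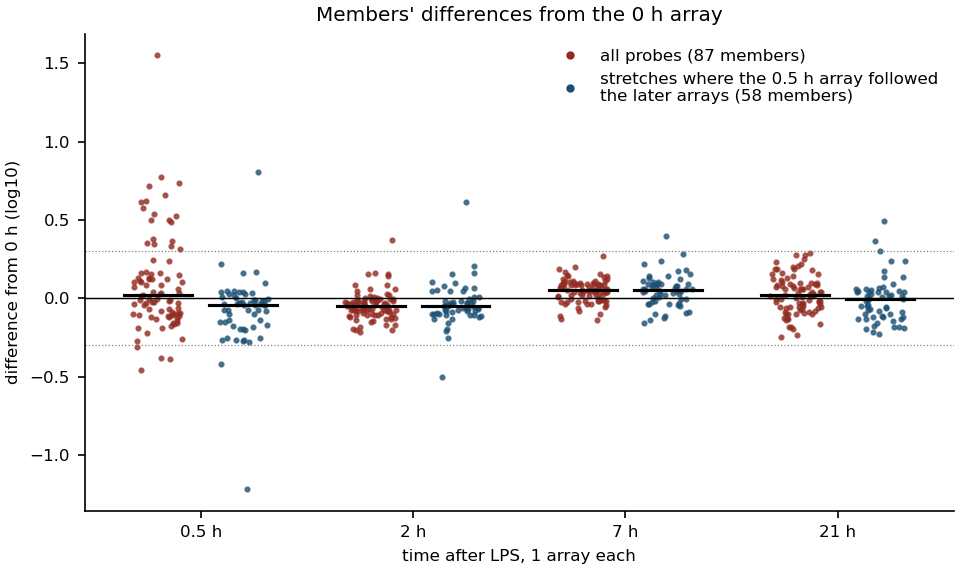
Difference in log10 ratio from the 0 h array for the members at 0.5, 2, 7 and 21 h, with black bars at the median and dotted lines at 2-fold, from all probes (red, 87 genes) and from probes in stretches where the 0.5 h array followed the later ones (blue, 58 genes). Among the red points 19 lay above and 4 below the dotted lines at 0.5 h, and 1, Cyc1 at 2 h, at the later times; of the blue points 3, 2, 1 and 3 lay beyond them in order of time.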

How the data were processed

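Total RNA was labelled by the indirect amino-allyl method with Cy3, per the labels' protocols. The deposited values were read as log10 ratios made by the authors, 1 per probe and array. The scanner, background correction and normalization steps were not given in the sources used here; without intensities signal over background is unknown. Precision is limited by having 5 arrays.

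The 19828 probes divide into 14759 with 1 symbol, 170 with several and 4899 without one here, and the first kind was used; 8 probes whose several symbols included a member were not used. All 87 members matched RefSeq by Entrez ID. Probes of a gene were averaged, and arrays were shifted to a median of 0 over the 8452 genes complete on all 5. A gene counted as high or low at 2-fold or more. Named were members past 2-fold on any array, or their range and count, the highest and lowest of each complex, tissue isoforms, complex II, Cyc1 and Cycs. In the lists of assembly factors, metabolic enzymes, carriers and regulators, those past 2-fold were named, at most 4. Members and lists were chosen with earlier results of these data known. Alternatives concerned centring, scaling, joining of probes, missing values, baseline, size and probe position. The calculation was tested on simulated data. Python 3.11.15, pandas 2.3.3, numpy 2.4.6 and statsmodels 0.14.6 were used.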

Additional observations from a re-analysis of the deposited data

How the results depend on the processing

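No paired analysis was possible because each group held 1 array, and leaving out a replicate was not possible for the same reason. The share of members below the embryo kept its direction on every array under every alternative run, between 66.7% and 89.9% at 0 h. With values read as base 2, 0 members lay 2-fold or more below the embryo on any array. The sets of genes in complexes are small, and the SD between probes, 0.21 to 0.54 by array, is larger than most of the shifts reported. Restriction to promoters rich in CG pairs, and the 2 h array as baseline for 7 h, were chosen after seeing the data. The member counts, shares and medians over time that moved are given here by setting; the cause was not tested unless the setting's construction shows it. Counts against the embryo also moved: members 2-fold below it at 0 h, 7 in number, were 28 at 1.5-fold, 14 after quantile normalization and 16 with a common median absolute deviation, and members 2-fold above it with the highest probe were 5 at 0 h and 7 at 7 h. The complex I core median ratio, -0.0916, was 0.0183 without the departing stretches, and the Cycs ratio, -0.134, was 0.0527 with the highest probe.

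The member median ratio to embryo on the 0, 0.5, 2 and 21 h arrays was -0.133, -0.0876, -0.189 and -0.0987. With the probe of the highest mean ratio, which raises ratios by construction, it was -0.0835, -0.129 and -0.0338 at 0, 2 and 21 h. Without centring it was -0.0279 at 0.5 h, and without the departing stretches -0.164 at 0.5 h and -0.13 at 2 h. The median difference from 0 h at 0.5 h, 0.0238, was 0.0844 with a common median absolute deviation, 0.0826 with a loess trend removed and -0.041 without the departing stretches. The median of 7 h against 2 h, 0.114, was 0.0643 after quantile normalization.

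The share of members below 0 h was 48.3% at 0.5 h. It was 29.9% after quantile normalization, 25.3% with a common median absolute deviation, 26.4% with the loess trend removed and 74.1% without the departing stretches. At 7 h it was 25.3%, and 43.7% against the 0.5 h array.

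Members 2-fold higher than at 0 h at 0.5 h numbered 19, and 1 without the departing stretches or with values read as base 2. Leaving out those stretches favours low counts at 0.5 h by construction, since they were chosen on the 0.5 h values. At 2 h there was 1, and 0 with the highest probe, a 3-fold rule or base 2, and 4 against the 0.5 h array. At 7 h there were 0, and 1 with a common median absolute deviation or without the departing stretches, 3 with the highest probe or a 1.5-fold rule, and 5 against the 0.5 h array. At 21 h there were 0, and 3 after quantile normalization, with the highest probe or without the departing stretches, 4 with a common median absolute deviation, 1 with the median of probes, 2 with a running median removed, 6 against the 0.5 h array and 12 at 1.5-fold.

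Members 2-fold lower at 0.5 h numbered 4. There were 2 with a common median absolute deviation, the loess trend removed, 2 or more probes per gene, or no departing stretches, 7 with the highest probe, 10 at 1.5-fold, 0 at 3-fold or in base 2, and 1 among subunits only. At 2 h there were 0, and 1 with the highest probe or without the departing stretches, 5 at 1.5-fold, 19 against the 0.5 h array and 4 against the mean of the other arrays. At 21 h there were 0, and 1 with the highest probe or against the mean of the other arrays, 5 at 1.5-fold and 16 against the 0.5 h array. At 7 h there were 0, and 15 against the 0.5 h array and 1 against the mean of the others.

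The member median at 21 h, 0.0192, changed sign in 3 of 15 alternatives and was -0.0168 against the 0.5 h array. Of 32 complex medians of the difference from 0 h, 24 changed sign under at least 1 alternative. Among genes past 2-fold from 0 h, those that changed sign were all at 0.5 h. Without the departing stretches Atp5a1 was -0.151, Atp5c1 -0.202, Atp5d -0.0319, Atp5pb -0.0841, Cox6b1 -0.0332, Ndufb10 -0.254 and Uqcrc2 -0.0253. With the median of probes Atp5a1 was -0.0304, Atp5pb -0.0155 and Cox6b1 -0.021. With the highest probe Atp5d was -0.0966, Atp5md -0.276, Ndufc2 -0.0831 and Sdhb -0.0377.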
